A study of Mus musculus with 16 samples.

Results

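The palate of mouse embryos whose neural crest lacked Erk2 was compared between embryonic days E13.5 and E14.5. The comparison rests on 8 of the 16 arrays of the series, chosen by their labelled genotype and stage: 3 arrays of E13.5 mutants and 5 of E14.5 mutants. All embryos were of the C57BL/6J strain. Mutants were Erk2 fl/fl with Wnt1-Cre. The floxed Erk2 gene is thus removed where the Wnt1-Cre transgene has been active, in cells of the neural crest. Epithelium, muscle, vessel endothelium and blood of the same embryo keep Erk2. Controls were Erk2 fl/fl without the transgene and carry the same floxed alleles (3 arrays at E13.5 and 5 at E14.5); their titles call them wild-type, and no array measured Wnt1-Cre alone. RNA was labelled as palate mesenchyme tissue, whereas the design text speaks of primary mesenchymal cells. How many embryos went into an array is not stated, so p-values measure the spread between arrays, which may be partly technical. The deleted gene itself was not analysed here.

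The palatal shelves grow out from the maxillary processes as crest-derived mesenchyme covered by oral epithelium, first hang beside the tongue, then lift above it and fuse at the midline. Around that time part of the mesenchyme condenses into the membranous bone of the palatine and maxillary processes, and the epithelium of the neighbouring nasal cavity begins to form ciliated and secretory cells. ERK2 is a MAP kinase that carries growth factor signals from receptors such as the FGF and PDGF receptors to the nucleus, and its loss from the crest is known to impair the palate. In whole tissue, fewer cells of a type and less RNA per cell cannot be told apart.

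Between the stages many bone matrix, motile cilium, airway, stratified epithelium and macrophage transcripts rose in the mutant palate. Embryonic globins and 6 of 26 tested transcription factors of the palatal mesenchyme fell. Of 12911 genes tested, 1371 were higher at E14.5 by more than 1.5-fold (10.6% of those tested) and 1421 lower (11.0%), by limma's test against that fold at an adjusted p of 0.05. Counts of rises and falls in the gene lists below are to be read beside these shares. Tested against no change instead, 4592 were higher (35.6%) and 5140 lower (39.8%), and the arrays of the stages did not overlap in 72.1% of genes, so neither a difference from 0 nor the lack of overlap sets a gene apart here. All 1371 genes called higher and all 1421 called lower had stages that did not overlap. Where a called gene is said below not to overlap, this describes its values and adds nothing to the call. Of the genes called higher, 182 were at the floor in every E13.5 mutant array. Of those called lower, 127 were at the floor in every E14.5 mutant array. Such genes could enter the test through the arrays where they are high, so counts that hold them are descriptions. The same analysis of the controls called 1259 genes higher (9.75%) and 1371 lower (10.6%), 20.4% in all, against 21.6% in mutants. Of the genes that rose in mutants, 1117 also rose in controls (81.5% of the mutants' genes and 88.7% of the controls'), and of those that fell, 1209 also fell (85.1% and 88.2%). No gene passed in opposite directions. The stage change itself differed between the genotypes for 22 genes (0.170%), which are described last.

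**Figure D1:**
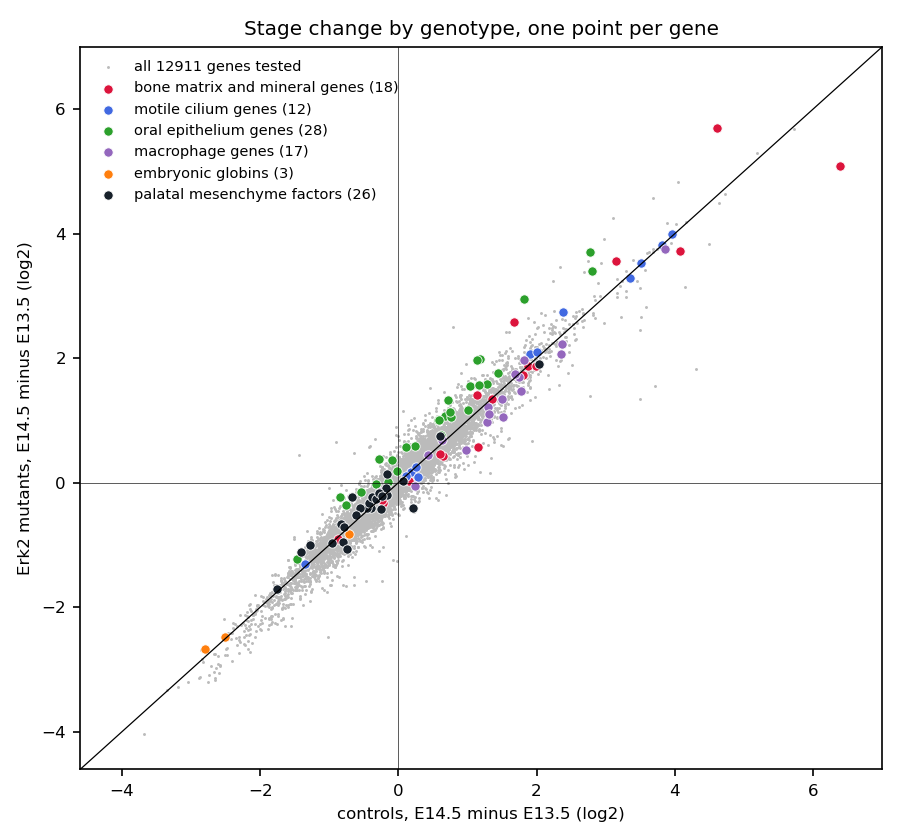
Change from E13.5 to E14.5 on the log2 scale in Erk2 mutants (vertical axis, 5 minus 3 arrays) against controls (horizontal axis, 5 minus 3 arrays), 1 point per gene, with 6 gene lists in colour and the line of equal change. Genes lie along the line, from Ibsp and Dmp1 at the upper right to the embryonic globins at the lower left, and the 28 oral epithelium genes lie above the line.

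Values below are log2 signals after all arrays were put on a shared distribution, with signals under its median of 2.31 set to that floor. A change is E14.5 minus E13.5 with its standard error (SE), and 1 unit is a doubling. Where every array of a stage was at the floor, the fold is given as "at least". The deposited medians differed by stage, from 3.42 to 3.44 in E13.5 mutants and 1.63 to 1.65 in E14.5 mutants, and no batch is labelled for the E13.5 arrays, so stage and array run cannot be told apart. After normalization, arrays correlated at 0.996 to 0.997 within E13.5 mutants, 0.995 to 0.997 within E14.5 mutants and 0.937 to 0.950 across the stages. The 32 bacterial control probe sets above the floor in every mutant array, whose RNA no embryo makes, changed by -0.99 to 0.74 with a median size of 0.46, and 8 of them moved by more than 1.5-fold. Beta-actin, whose 5′ signal falls off in broken RNA, read lower at its 5′ than its 3′ probe set, with a difference of -0.95 ± 0.05 (SD, n = 3) at E13.5 and -1.26 ± 0.08 (SD, n = 5) at E14.5. By Xist and the Y-linked gene Eif2s3y, all 3 E13.5 mutant arrays and E14.5 mutant arrays 1 to 3 were female and E14.5 mutant arrays 4 and 5 male.

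A change seen by one probe set was often not seen by another of the same gene. Of 650 genes called higher that had several probe sets above the floor, all probe sets moved up in 360 (55.4%) and all were called in 100 (15.4%). Of 525 called lower, all moved down in 299 (57.0%) and all were called in 90 (17.1%). Among rises of 4-fold or more these shares were 66.7% and 29.5% of 78 genes, and among falls of that size 62.5% and 27.5% of 40. The probe set with the highest mean stands for a gene, and the others are given where a named gene has them. On the deposited scale with a floor of 4 the median change of all genes was -0.44, against -0.02 here, so rises are few and falls many on that scale.

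**Figure D2:**
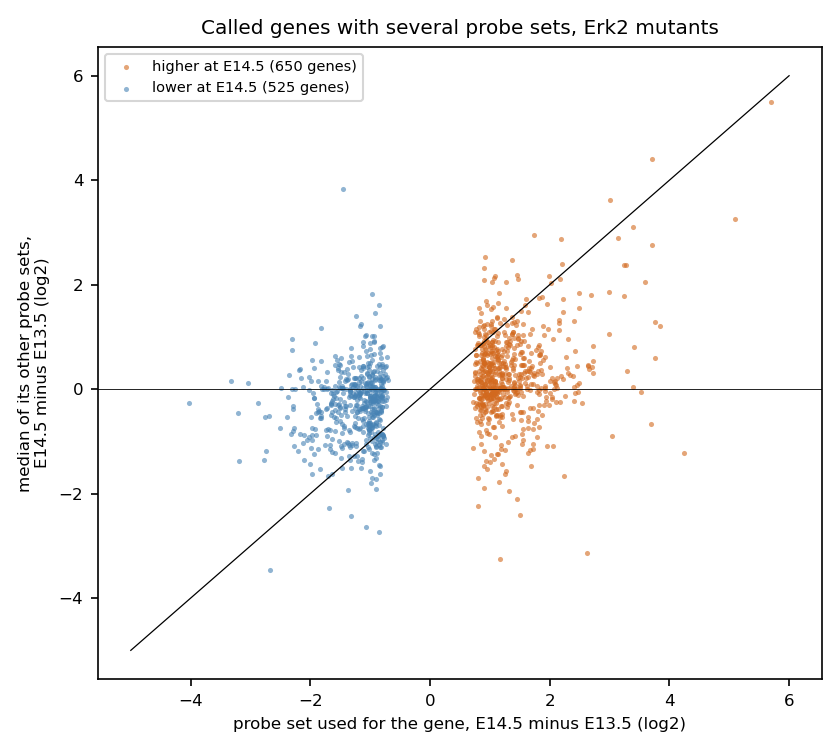
For genes called in mutants with several probe sets, the stage change of the probe set used (horizontal axis, log2) against the median change of the gene's other probe sets (vertical axis, log2). The 650 rises and 525 falls stand apart on the horizontal axis by the test, and their other probe sets have medians of 0.23 and -0.23, near the zero line, with Ibsp at the upper right close to the line of equal change.

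Bone matrix and mineral genes were among the large rises of the comparison. Of 22 listed genes, 18 were tested, 10 rose and 1 fell, with a median change of 1.38 in mutants and 1.25 in controls, beside -0.02 over all genes. Of the 18, 2 were at the floor in every E13.5 mutant array, so the count is a description. Ibsp, bone sialoprotein, stood at 4.27, 7.47 and 5.95 in the E13.5 arrays and at 11.50, 11.90, 11.54, 11.55 and 11.48 in the E14.5 arrays, a rise of 5.70 ± 0.47 (adjusted p = 3.29e-07), and both probe sets rose. The E13.5 arrays differed more among themselves than the E14.5 arrays, and no array overlapped between stages. Dmp1, a matrix protein of cells that become osteocytes, stood at the floor in all 3 E13.5 arrays and at 7.40, 8.48, 7.18, 6.64 and 7.29 in the E14.5 arrays, at least 34.2-fold higher (adjusted p = 6.95e-09), in all 3 of its probe sets. Phex, an osteocyte endopeptidase that restrains mineralization inhibitors, stood at 2.53, 2.31 and 2.50 in the E13.5 arrays and at 5.99, 7.00, 5.72, 5.94 and 6.17 in the E14.5 arrays and rose by 3.72 ± 0.25 (adjusted p = 6.06e-08). Ifitm5, a membrane protein of mineralizing osteoblasts, stood at 4.13, 5.38 and 4.76 in the E13.5 arrays and at 8.27, 8.83, 8.16, 8.20 and 8.16 in the E14.5 arrays and rose by 3.57 ± 0.28 (adjusted p = 4.47e-07). In Ibsp, Dmp1, Phex and Ifitm5 the second E14.5 array was the highest of its group.

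Genes of earlier bone matrix moved less. Col1a1, a chain of type I collagen, stood at 7.91, 8.34 and 7.51 in the E13.5 arrays and at 9.48, 9.94, 9.80, 9.88 and 9.86 in the E14.5 arrays and rose by 1.87 ± 0.15 (adjusted p = 4.75e-06) in both probe sets. Omd, osteomodulin, a small proteoglycan of mineralized tissue, rose by 1.73 ± 0.16 (adjusted p = 3.13e-05). The other genes that rose were Tnfrsf11b at 2.58 ± 0.32, Smpd3 at 1.87 ± 0.26, Tnfsf11 at 1.41 ± 0.18 and Alpl, the alkaline phosphatase of bone, at 1.35 ± 0.15. Ank, a pyrophosphate transporter, fell by 0.91 ± 0.08. The other type I collagen chain Col1a2 (-0.33 ± 0.07), Sparc (0.42 ± 0.06) and Postn (0.17 ± 0.08) did not pass. In controls 11 bone matrix genes rose and 1 fell, and none passed the test of the difference by genotype: Ibsp changed by 4.61 in controls and Dmp1 by 6.40, with 95% intervals for the difference of -0.32 to 2.51 and -2.18 to -0.43.

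Among transcription factors of osteoblast commitment the directions were mixed, with 1 rise and 3 falls in 9 tested. Creb3l1, a factor of the collagen secretory pathway in osteoblasts, stood at 3.18, 3.63 and 3.27 in the E13.5 arrays and at 5.02, 5.36, 5.18, 5.04 and 4.93 in the E14.5 arrays and rose by 1.75 ± 0.13 (adjusted p = 3.24e-06). The homeobox factors Dlx5 (-1.07 ± 0.15; adjusted p = 0.0136), Dlx6 (-1.03 ± 0.15; adjusted p = 0.0239) and Msx2 (-1.11 ± 0.16; adjusted p = 0.0132) fell. Sp7, which commits precursors to osteoblasts, read 0.73 ± 0.17 and did not pass (adjusted p = 0.703), although its arrays did not overlap. Creb3l1 lost the call with the deposited scale, Dlx5, Dlx6 and Msx2 with within-array ranks or cyclic loess, Dlx5 and Dlx6 with the E14.5 arrays of batch 1 alone, and Msx2 with the mean over probe sets. Dlx5 missed the threshold without E13.5 mutant array 1 (adjusted p = 0.0859), Dlx6 without E13.5 mutant array 1 or 3 or E14.5 mutant array 3 or 5 (adjusted p from 0.0542 to 0.124) and Msx2 without E13.5 mutant array 2 (adjusted p = 0.0830).

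Of the osteoclast enzymes, 6 of 10 were tested and 1 rose. Acp5, the tartrate-resistant acid phosphatase of bone-resorbing cells, stood at 2.98, 2.48 and 3.39 in the E13.5 arrays and at 5.65, 6.06, 4.97, 5.63 and 5.51 in the E14.5 arrays and rose by 2.61 ± 0.32 (adjusted p = 9.14e-05). The defining proteases Ctsk (0.79 ± 0.13) and Mmp9 (0.90 ± 0.19) did not pass, and Atp6v0d2 and Tnfrsf11a were at the floor in every E13.5 mutant array. The list's mean level was 4.09 to 4.25 over the E13.5 mutant arrays and 4.79 to 5.12 over the E14.5 ones. Mmp13, a collagenase of hypertrophic cartilage and bone, stood at the floor in all 3 E13.5 arrays and at 6.52, 6.66, 7.13, 6.84 and 6.88 in the E14.5 arrays, at least 22.6-fold higher (adjusted p = 2.63e-10). Acp5 lost the call with the deposited scale. The part of changed cell numbers in these rises was not tested.

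**Figure D3:**
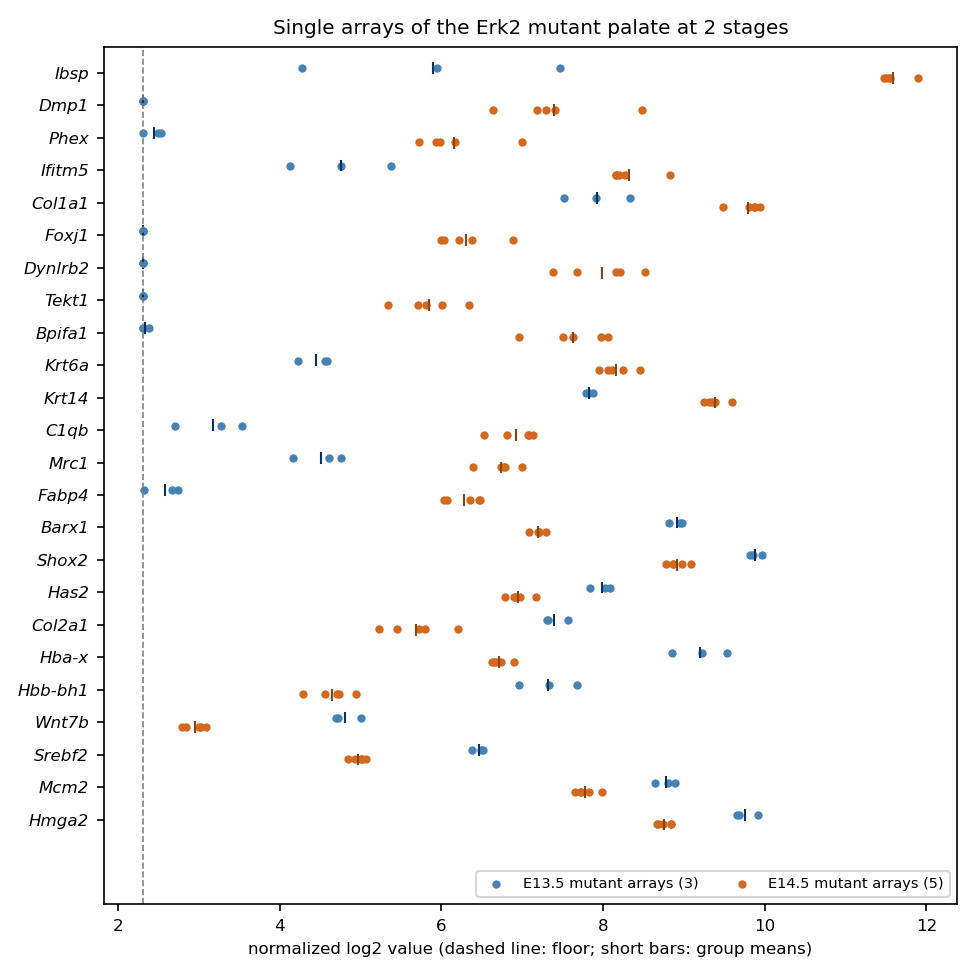
Normalized log2 values (horizontal axis) of 24 named genes in each of the 3 E13.5 and 5 E14.5 Erk2 mutant arrays, 1 point per array, with group means as short bars and the floor at 2.31 as a dashed line. The genes were picked among those called, the upper 14 higher at E14.5 and the lower 10 lower. Arrays of the stages overlap in none, as in every called gene, and did not overlap in 72.1% of all genes.

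Most transcription factors of the palatal mesenchyme had lower values at E14.5, by small amounts. Of 29 listed, 26 were tested, 6 fell, 1 rose and 22 of the 26 (84.6%) had a change below 0, beside 51.9% of all genes, with a median of -0.40 in mutants and -0.41 in controls. None of the 26 was at the floor in every E13.5 mutant array, and their mean level was 7.42 to 7.45 over the E13.5 mutant arrays and 7.01 to 7.16 over the E14.5 ones, so the labelled tissue carried its markers at both stages. Barx1, a homeobox factor of the posterior palate and jaw mesenchyme, stood at 8.96, 8.81 and 8.98 in the E13.5 arrays and at 7.30, 7.21, 7.09, 7.21 and 7.20 in the E14.5 arrays and fell by 1.71 ± 0.08 (adjusted p = 1.07e-08). Shox2, a homeobox factor of the anterior palate, stood at 9.97, 9.82 and 9.86 in the E13.5 arrays and at 8.78, 8.87, 9.09, 8.87 and 8.97 in the E14.5 arrays and fell by 0.97 ± 0.09 (adjusted p = 0.00222) in both probe sets. Neither gene overlapped between the stages, and the changes in controls were -1.76 for Barx1 and -0.96 for Shox2.

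Twist2, a helix-loop-helix factor of undifferentiated mesenchyme, fell by 1.00 ± 0.12 (adjusted p = 0.0104), and Foxd2, a forkhead factor, fell by 0.96 ± 0.11 (adjusted p = 0.00968). Pax3, a paired-box factor of crest and muscle precursors, stood at 3.69, 4.28 and 4.27 in the E13.5 arrays and at 5.65, 5.83, 6.15, 6.21 and 6.09 in the E14.5 arrays and rose by 1.91 ± 0.16 (adjusted p = 5.74e-06), but its other probe sets had a median of -0.30. Osr2 (-0.22 ± 0.09), Msx1 (0.13 ± 0.22), Prrx1 (-0.19 ± 0.07), Twist1 (-0.32 ± 0.07) and Tbx22 (-0.40 ± 0.14), all known from the palate, did not pass. Twist2 and Foxd2 lost the call with within-array ranks or cyclic loess, Twist2 with the E14.5 arrays of batch 1 alone, Foxd2 with the E14.5 arrays of batch 2 alone, and Pax3 with the deposited scale or the mean over probe sets. Foxd2 missed the threshold without E13.5 mutant array 3 (adjusted p = 0.0719).

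Among cartilage genes type II collagen and 3 of its matrix partners fell, with 4 falls and 2 rises in 19 of 22 tested and a median of 0.05 in mutants and 0.09 in controls. Col2a1, the main collagen of cartilage, stood at 7.30, 7.57 and 7.32 in the E13.5 arrays and at 5.23, 6.21, 5.72, 5.80 and 5.45 in the E14.5 arrays and fell by 1.72 ± 0.19 (adjusted p = 0.000143). Matn1, a matrilin of cartilage matrix, stood at 3.85, 5.15 and 5.45 in the E13.5 arrays and at 2.31, 2.49, 2.31, 2.31 and 2.31 in the E14.5 arrays and fell by 2.47 ± 0.30 (adjusted p = 8.23e-05). Col9a1, a collagen that coats type II fibrils, fell by 1.64 ± 0.30 (adjusted p = 0.0102) in both probe sets, and Matn4 fell by 1.10 ± 0.17 (adjusted p = 0.0218). Col11a1 rose by 1.31 ± 0.13 (adjusted p = 0.000299), with its other probe set at 0.18, and Ucma, a secreted protein of young cartilage, was at least 2.05-fold higher (adjusted p = 0.0294). In controls 4 cartilage genes rose and none fell, but no gene of the list passed the test of the difference: in controls Col2a1 changed by -1.07, Matn1 by -1.01 and Matn4 by -0.27, with 95% intervals for the difference of -1.22 to -0.07, -2.36 to -0.56 and -1.33 to -0.31. Col9a1, Matn4 and Ucma lost the call with the E14.5 arrays of batch 1 alone, Matn4 and Ucma with within-array ranks, Matn4 with cyclic loess or the E14.5 arrays of batch 2 alone, Col11a1 with the mean over probe sets, and Ucma with quantile normalization of the mutant arrays alone, a floor at the 60th percentile, array weights or only mutant arrays in the fit. Matn4 missed the threshold without E13.5 mutant array 2 or E14.5 mutant array 5 (adjusted p from 0.0540 to 0.125) and Ucma without E13.5 mutant array 1, 2 or 3 or E14.5 mutant array 3 or 4 (adjusted p from 0.0685 to 0.0759).

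Motile cilium genes rose from the floor between the stages. These genes build and beat the cilia of airway and nasal epithelium and lie outside the mesenchyme's own programme. Of 18 listed, 12 were tested, and 9 of the 12 were at the floor in every E13.5 mutant array. Those 9 entered the test only through other arrays, so the count is a description: 7 rose and 1, Tekt2, fell (-1.30 ± 0.08). Foxj1, the factor that switches on motile ciliogenesis, stood at the floor in all 3 E13.5 arrays and at 6.88, 6.03, 5.99, 6.22 and 6.38 in the E14.5 arrays, at least 15.9-fold higher (adjusted p = 6.69e-10). Tekt1, a tektin of the axoneme, stood at the floor in all 3 E13.5 arrays and at 6.35, 5.34, 5.72, 5.81 and 6.00 in the E14.5 arrays, at least 11.6-fold higher (adjusted p = 1.08e-09). Rsph1, a radial spoke protein, stood at the floor in all 3 E13.5 arrays and at 6.69, 5.57, 5.81, 6.13 and 6.46 in the E14.5 arrays, at least 14.2-fold higher (adjusted p = 6.49e-09). In all 3 genes the first E14.5 array was the highest.

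The other rises were at least 9.76-fold for Ccdc39, an axonemal ruler protein, 6.69-fold for Dnaic2, a dynein arm chain, 4.28-fold for Ccno, a cyclin of centriole amplification, and 4.18-fold for Rsph4a. Ccdc39 had a second probe set at 0.35. Outside the list, Dynlrb2, a dynein light chain, stood at the floor in all 3 E13.5 arrays and at 8.52, 7.38, 7.68, 8.16 and 8.22 in the E14.5 arrays, at least 51.5-fold higher (adjusted p = 9.28e-11). Deup1, a scaffold of centriole multiplication, stood at the floor in all 3 E13.5 arrays and at 7.38, 6.43, 6.54, 7.05 and 7.29 in the E14.5 arrays, at least 24.8-fold higher, and Cfap126 stood at 2.39, 2.31 and 2.31 in the E13.5 arrays and at 6.98, 6.11, 6.32, 6.56 and 6.62 in the E14.5 arrays and rose by 4.19 ± 0.16. None of these genes passed the test of the difference by genotype: it was 0.04 ± 0.24 for Foxj1 and -0.04 ± 0.29 for Dynlrb2, with 95% intervals of -0.49 to 0.56 and -0.67 to 0.59. Ccno lost the call with the deposited scale.

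Promoters were searched for the core of RFX factor sites, the letters GTTGCC on either strand, because these genes moved together. RefSeq windows on build GRCm38.p6, from 250 bases before to 50 after a start, were matched for 4 of the 7 genes that rose, and 3 of them, Ccno, Dnaic2 and Tekt1, held the letters. Of all 27025 genes with a window, 14.1% held them. Dynlrb2 held 1 match as well. A match is a description of the letters only. The 250 bases before the start are shown for these 4 promoters, for Tekt1 those of the one of its 2 starts that holds matches, 5′ to 3′ in the direction of the gene, with the core in capitals. Counted from the start, the matches begin at -35 and -15 in Tekt1, -26 in Dnaic2, -51 in Dynlrb2 and -219 in Ccno.
Tekt1 (chr11:72361883-72362132, minus strand): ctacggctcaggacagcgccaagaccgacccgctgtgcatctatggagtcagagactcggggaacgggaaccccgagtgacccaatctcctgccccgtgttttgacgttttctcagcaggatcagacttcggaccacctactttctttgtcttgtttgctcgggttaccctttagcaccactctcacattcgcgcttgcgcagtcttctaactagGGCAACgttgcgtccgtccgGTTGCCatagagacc
Dnaic2 (chr11:114727169-114727418, plus strand): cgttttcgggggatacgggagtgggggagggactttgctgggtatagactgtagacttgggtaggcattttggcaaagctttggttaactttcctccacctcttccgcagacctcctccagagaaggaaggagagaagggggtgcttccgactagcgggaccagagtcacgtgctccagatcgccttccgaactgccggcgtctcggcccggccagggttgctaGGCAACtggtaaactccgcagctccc
Dynlrb2 (chr8:116504765-116505014, plus strand): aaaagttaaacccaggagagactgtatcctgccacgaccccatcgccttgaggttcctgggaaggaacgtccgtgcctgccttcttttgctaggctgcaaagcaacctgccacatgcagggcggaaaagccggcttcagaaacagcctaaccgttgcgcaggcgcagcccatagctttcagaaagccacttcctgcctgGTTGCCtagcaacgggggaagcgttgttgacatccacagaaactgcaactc
Ccno (chr13:112987552-112987801, plus strand): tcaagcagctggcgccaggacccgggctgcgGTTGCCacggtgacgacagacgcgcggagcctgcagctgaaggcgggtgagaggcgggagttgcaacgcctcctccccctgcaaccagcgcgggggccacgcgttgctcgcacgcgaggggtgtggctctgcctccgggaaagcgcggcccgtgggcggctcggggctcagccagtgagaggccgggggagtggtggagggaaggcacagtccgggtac

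For bone the letters TGTGGT on either strand, the core of RUNX factors that govern osteoblasts, were searched in the same way. Windows were matched for 7 of the 10 bone matrix genes that rose, and 1 of them, Dmp1, held the letters, against 18.9% of all 27025 genes. The match in Dmp1 begins at -164 from one of its starts and stands in capitals here, to set it beside the cilium promoters.
Dmp1 (chr5:104202367-104202616, plus strand): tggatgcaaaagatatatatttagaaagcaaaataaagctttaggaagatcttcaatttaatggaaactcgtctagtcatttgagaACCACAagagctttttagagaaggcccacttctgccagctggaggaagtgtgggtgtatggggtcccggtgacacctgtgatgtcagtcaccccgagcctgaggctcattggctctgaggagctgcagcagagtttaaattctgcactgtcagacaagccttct

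Secretory genes of the airway epithelium rose with the cilium genes. Of 11 listed, 7 were tested and 4 rose, beside 10.6% of all genes, with a median of 1.51 in mutants and 1.36 in controls. Genes near the floor at E13.5 could enter the test through the E14.5 arrays, so the count is a description. Bpifa1, a secreted defence protein of the upper airway, stood at 2.31, 2.31 and 2.38 in the E13.5 arrays and at 8.06, 7.63, 7.98, 7.50 and 6.96 in the E14.5 arrays and rose by 5.30 ± 0.26 (adjusted p = 1.35e-09). Cyp2f2, a cytochrome P450 of club and nasal cells, stood at 2.59, 3.28 and 4.10 in the E13.5 arrays and at 7.76, 7.35, 7.51, 7.52 and 7.25 in the E14.5 arrays and rose by 4.16 ± 0.36 (adjusted p = 9.08e-07). Reg3g, an antibacterial lectin, stood at 2.46, 2.37 and 2.31 in the E13.5 arrays and at 6.30, 5.55, 5.78, 5.76 and 5.80 in the E14.5 arrays and rose by 3.46 ± 0.19 (adjusted p = 1.1e-08). All stood above their E13.5 values in every E14.5 array. Agr2, needed for mucin folding, was at least 2.84-fold higher, while Bpifb1 (0.33 ± 0.06) and the mucin Muc5ac (-0.20 ± 0.06) did not pass. Other large rises were Cbr2, a carbonyl reductase of airway cells, by 3.85 ± 0.22 and Aldh1a1, a retinaldehyde dehydrogenase, by 4.83 ± 0.20. Agr2 lost the call with within-array ranks or a floor at the 60th percentile. The amount of nasal epithelium in each dissection was not measured, and its part in these rises was not tested.

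Oral epithelium genes rose, with keratins and desmosome proteins in the lead. Of 32 listed, 28 were tested, 15 rose and 1 fell, with a median of 1.03 in mutants and 0.65 in controls and a mean level of 6.13 to 6.21 over the E13.5 mutant arrays and 7.09 to 7.39 over the E14.5 ones. Of the 28, 2 were at the floor in every E13.5 mutant array, so the count is a description. Krt6a, a keratin of activated epithelium and periderm, stood at 4.58, 4.56 and 4.22 in the E13.5 arrays and at 8.11, 7.95, 8.25, 8.07 and 8.46 in the E14.5 arrays and rose by 3.71 ± 0.12 (adjusted p = 4.03e-11) in all 3 probe sets. Krt14, a keratin of the basal layer, stood at 7.88, 7.79 and 7.83 in the E13.5 arrays and at 9.35, 9.32, 9.39, 9.26 and 9.60 in the E14.5 arrays and rose by 1.55 ± 0.10 (adjusted p = 1.49e-06) in both. Krt4, a keratin of inner stratified epithelia, stood at the floor in all 3 E13.5 arrays and at 6.23, 5.46, 5.40, 5.67 and 5.79 in the E14.5 arrays, at least 10.6-fold higher (adjusted p = 4.51e-09). Every E14.5 array lay above every E13.5 array in the 3 keratins, as in every gene called higher.

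Krt19 rose by 1.77 ± 0.09, Krt17 by 1.98 ± 0.21, and the desmosome genes Dsc3 by 1.97 ± 0.30 and Pkp1 by 1.57 ± 0.19. Krt13 was at least 3.02-fold higher. Ly6d, a surface protein of stratified epithelium, rose by 2.95 ± 0.17 and Sfn, the epithelial 14-3-3 protein, by 1.33 ± 0.08 (adjusted p = 9.8e-07). Cldn6, a claudin of embryonic epithelium, fell by 1.23 ± 0.15. Epcam (0.19 ± 0.08), Grhl2 (0.01 ± 0.11) and Esrp1 (-0.02 ± 0.08), which mark epithelium in general, and Trp63 (0.36 ± 0.15), a factor of its basal layer, did not pass. Of the cornified envelope list, 9 of 18 were tested: Krtdap, a keratinocyte differentiation protein, stood at 3.03, 3.05 and 2.51 in the E13.5 arrays and at 7.08, 6.66, 6.38, 7.04 and 6.75 in the E14.5 arrays and rose by 3.92 ± 0.25 (adjusted p = 4.33e-08), and Lor, loricrin, fell by 1.16 ± 0.11 (adjusted p = 0.000577). Sfn and Lor lost the call with within-array ranks, Sfn with the deposited scale, and Lor with a floor at the 60th percentile or the mean over probe sets. In controls 9 of the 28 oral epithelium genes rose and 1 fell, and the change differed by genotype in 2, Krt6a and Sfn.

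Macrophage genes rose together. Of 20 listed, 17 were tested and 12 rose, none fell, and the median was 1.22 in mutants and 1.5 in controls. The list's mean level was 4.36 to 4.46 over the E13.5 mutant arrays and 5.57 to 5.83 over the E14.5 ones. C1qb, a chain of complement C1q made by tissue macrophages, stood at 3.27, 3.53 and 2.71 in the E13.5 arrays and at 7.13, 6.81, 7.07, 7.08 and 6.53 in the E14.5 arrays and rose by 3.75 ± 0.23 (adjusted p = 2.69e-08) in all 3 probe sets. Mrc1, the mannose receptor of resident macrophages, stood at 4.61, 4.76 and 4.16 in the E13.5 arrays and at 6.77, 6.39, 6.74, 7.00 and 6.79 in the E14.5 arrays and rose by 2.23 ± 0.14 (adjusted p = 1.6e-07). Aif1, a cytoskeletal protein of macrophages, stood at 3.07, 3.02 and 2.77 in the E13.5 arrays and at 4.91, 4.92, 4.95, 4.87 and 4.94 in the E14.5 arrays and rose by 1.96 ± 0.09 (adjusted p = 1.1e-08). None of the 3 overlapped between stages.

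C1qa rose by 1.70 ± 0.12, Cd68 by 1.34 ± 0.07 and Laptm5, a lysosomal protein of blood cells, by 2.06 ± 0.08, though the other probe sets of Laptm5 had a median of -1.09. Csf1r (-0.05 ± 0.06), the receptor that macrophages need, Adgre1 (0.53 ± 0.09) and C1qc (0.44 ± 0.14) did not pass. Lyve1, shared by lymphatic vessels and resident macrophages, stood at 2.37, 2.53 and 2.31 in the E13.5 arrays and at 4.93, 4.57, 4.99, 5.04 and 4.78 in the E14.5 arrays and rose by 2.46 ± 0.15 (adjusted p = 5.44e-08), with its second probe set at 0.44, while the lymphatic genes Prox1 (0.12 ± 0.21) and Flt4 (-0.02 ± 0.10) did not pass. The mast cell proteases Cpa3 and Cma1 rose, Cpa3 by 2.49 ± 0.26 and Cma1 at least 2.61-fold, and Gzmm, a granzyme, fell at least 1.77-fold. Of interferon and antigen genes 3 of 7 tested rose, with B2m, the light chain of class I molecules, at 1.02 ± 0.06 and H2-D1 at 0.93 ± 0.10. Aif1, C1qa, Lyve1 and Cpa3 lost the call with the deposited scale, Cd68 and Cma1 with a floor at the 60th percentile, B2m and H2-D1 with the mean over probe sets, and H2-D1 with within-array ranks, cyclic loess or the E14.5 arrays of batch 2 alone. Laptm5 read -0.20 with the mean over probe sets and H2-D1 read -0.03 with the deposited scale, the opposite direction.

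Embryonic globins fell, all 3 that were tested. These are the globin chains of primitive red cells, which the fetal liver's definitive cells replace. Hba-x, zeta globin, stood at 9.23, 8.85 and 9.53 in the E13.5 arrays and at 6.90, 6.67, 6.62, 6.66 and 6.74 in the E14.5 arrays and fell by 2.49 ± 0.16 (adjusted p = 1.06e-07). Hbb-bh1 stood at 7.68, 6.96 and 7.33 in the E13.5 arrays and at 4.95, 4.71, 4.74, 4.29 and 4.56 in the E14.5 arrays and fell by 2.67 ± 0.20 (adjusted p = 5.09e-07) in all 3 probe sets. Hbb-y stood at 12.51, 12.66 and 12.66 in the E13.5 arrays and at 11.75, 11.90, 11.72, 11.84 and 11.72 in the E14.5 arrays and fell by 0.83 ± 0.08 (adjusted p = 0.0152), in all 3 probe sets as well. Every E14.5 array lay below every E13.5 array in each of the 3. The list's median was -2.49 in mutants and -2.50 in controls, where Hba-x and Hbb-bh1 fell and Hbb-y (-0.71) did not pass. Of adult red cell genes, 1 of 6 rose, Hbb-b2 by 1.54 ± 0.11 (adjusted p = 3.41e-06), with its second probe set at -0.86. Hbb-y lost the call with the E14.5 arrays of batch 1 alone or the replicate number as a block, and Hbb-b2 with within-array ranks, the deposited scale or the mean over probe sets. Hbb-y missed the threshold without E13.5 mutant array 2 or 3 (adjusted p from 0.0612 to 0.0682). Adult and embryonic globins are close copies, and probes can take up each other's RNA.

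Vessel, neuron and muscle genes changed in single members, and glia genes in several and both ways. Of 18 endothelium genes 2 fell, a share near the 11.0% of all genes. They were the VEGF receptors Flt1 (-1.24 ± 0.13; adjusted p = 0.000632), with a median of -0.29 in its other probe sets, and Kdr (-0.96 ± 0.11; adjusted p = 0.0103). The list's median was 0.18 in mutants and 0.34 in controls, but -0.55 in mutants with the deposited scale. Of 9 glia genes 2 rose and 3 fell, beside 10.6% and 11.0% of all genes. Gfra3, a receptor of crest-derived neurons and glia, stood at 4.03, 3.72 and 4.08 in the E13.5 arrays and at 2.54, 2.54, 2.32, 2.39 and 2.46 in the E14.5 arrays and fell by 1.5 ± 0.08 (adjusted p = 2.08e-07). Sox10, the factor that defines crest glia, fell by 1.13 ± 0.11 (adjusted p = 0.000817) and Foxd3, a crest factor, fell at least 2.14-fold (adjusted p = 2.16e-06). S100b, a calcium-binding protein of Schwann cells and cartilage, rose by 1.27 ± 0.09, and Egr2, which drives myelination and is also an ERK target, is given with the ERK targets. Of 14 neuron genes, Prph, a filament protein of peripheral neurons, rose by 1.60 ± 0.33 (adjusted p = 0.0209) and Syt1 fell by 0.96 ± 0.07 (adjusted p = 0.000383), with a list median of 0.33 in mutants and 0.23 in controls, but -0.42 in mutants with the deposited scale and -0.03 in mutants with the mean over probe sets. Flt1, Kdr, Sox10, Prph and Syt1 lost the call with within-array ranks, Flt1 and Sox10 with the mean over probe sets, Kdr, Sox10 and Syt1 with cyclic loess, Kdr with the E14.5 arrays of batch 2 alone, Gfra3, Foxd3, S100b, Egr2, Prph and Syt1 with a floor at the 60th percentile, and Foxd3 and Syt1 with the deposited scale. Kdr missed the threshold without E13.5 mutant array 1 (adjusted p = 0.0647) and Prph without E13.5 mutant array 1 or 3 (adjusted p from 0.0680 to 0.0687).

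Of 28 contractile muscle genes, 2 rose, Tmod1 by 1.10 ± 0.16 (adjusted p = 0.0178) and the perinatal myosin Myh8 by 1.88 ± 0.43 (adjusted p = 0.0223), with a median of -0.02 in mutants and 0.37 in controls. Among 6 muscle regulators Myod1, which commits cells to muscle, stood at 4.73, 4.13 and 4.53 in the E13.5 arrays and at 4.09, 3.12, 2.95, 3.03 and 3.14 in the E14.5 arrays and fell by 1.20 ± 0.22 (adjusted p = 0.0362). E14.5 array 1 held the highest value of Myod1, Myh8 and Tmod1 among the E14.5 mutant arrays. The contractile list's mean level was 5.46 to 5.86 over the E13.5 mutant arrays and 5.27 to 6.58 over the E14.5 ones, and the range at E14.5 encloses that at E13.5. Tmod1, Myh8 and Myod1 lost the call with within-array ranks or cyclic loess, Myh8 with the deposited scale, Myh8 and Myod1 with the replicate number as a block, and Myod1 with the mean over probe sets, only mutant arrays in the fit or the E14.5 arrays of batch 1 alone. Tmod1 read -0.26 with the deposited scale, the opposite direction. Tmod1 missed the threshold without E13.5 mutant array 3 (adjusted p = 0.101), Myh8 without E13.5 mutant array 2 or 3 (adjusted p from 0.0647 to 0.0965) and Myod1 without E13.5 mutant array 1 or 3 or E14.5 mutant array 2, 3, 4 or 5 (adjusted p from 0.0636 to 0.174).

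Of 29 matrix genes of connective tissue 28 were tested, 2 rose, fewer in share than the 10.6% of all genes, and 1 fell, with a median of 0.33 in mutants and 0.36 in controls. Fmod, fibromodulin, stood at 6.01, 6.17 and 6.14 in the E13.5 arrays and at 7.86, 7.93, 7.89, 8.04 and 7.99 in the E14.5 arrays and rose by 1.84 ± 0.10 (adjusted p = 8.01e-08), with all 6 probe sets upward. Aspn, asporin, which binds collagen and TGF-beta, stood at 8.43, 9.38 and 9.03 in the E13.5 arrays and at 10.48, 10.40, 10.66, 10.50 and 10.29 in the E14.5 arrays and rose by 1.52 ± 0.17 (adjusted p = 0.000327) in both probe sets. Fbln1, fibulin 1 of elastic fibres and basement membranes, stood at 7.44, 7.29 and 7.36 in the E13.5 arrays and at 6.49, 6.17, 6.31, 6.35 and 6.39 in the E14.5 arrays and fell by 1.02 ± 0.10 (adjusted p = 0.00294). The stages did not overlap in these 3.

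Hyaluronan, the swelling polymer of the rising shelf, is made by the Has synthases, of which Has2 fell, Has3 rose and Has1 (-0.14 ± 0.05), near the floor, did not pass. Has2, the main synthase of embryonic mesenchyme, stood at 8.09, 8.03 and 7.84 in the E13.5 arrays and at 6.79, 6.90, 7.17, 6.97 and 6.92 in the E14.5 arrays and fell by 1.04 ± 0.09 (adjusted p = 0.000419), with its second probe set at -0.65. Has3, a synthase of epithelia, stood at 3.10, 2.81 and 2.79 in the E13.5 arrays and at 4.96, 4.33, 4.26, 5.04 and 4.70 in the E14.5 arrays and rose by 1.76 ± 0.20 (adjusted p = 0.000149). Tnfaip6, which links hyaluronan to protein, stood at 6.72, 7.00 and 7.02 in the E13.5 arrays and at 8.13, 8.25, 8.56, 7.97 and 8.34 in the E14.5 arrays and rose by 1.33 ± 0.12 (adjusted p = 7.96e-05). Has2 was lower and both Has3 and Tnfaip6 higher in every E14.5 array than in any E13.5 array. Cd44, the cell's hyaluronan receptor, rose by 0.85 ± 0.09 (adjusted p = 0.0219), with a median of 0.41 in its other probe sets, and Hyal2, a hyaluronidase, fell by 0.80 ± 0.07 (adjusted p = 0.0205), which makes 3 rises and 2 falls in 10 tested.

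Collagen processing enzymes moved both ways, 2 up and 2 down of 16. Plod3, a lysyl hydroxylase, stood at 5.79, 5.71 and 5.85 in the E13.5 arrays and at 4.47, 4.16, 4.42, 4.46 and 4.26 in the E14.5 arrays and fell by 1.43 ± 0.10 (adjusted p = 6.33e-06). Pcolce, an enhancer of procollagen cleavage, stood at 8.71, 8.95 and 8.73 in the E13.5 arrays and at 9.63, 9.99, 9.92, 9.91 and 9.81 in the E14.5 arrays and rose by 1.05 ± 0.08 (adjusted p = 0.00012) in both probe sets, and Loxl1, a lysyl oxidase of elastin, rose by 1.03 ± 0.08 (adjusted p = 0.000312), with a second probe set at -0.41. Bmp1, the procollagen C-proteinase, fell by 0.94 ± 0.12 (adjusted p = 0.0220), but its second probe set read 1.03. Of proteases, Adam12 rose by 1.35 ± 0.08 (adjusted p = 7.23e-07) and Mmp14, a membrane collagenase, fell by 1.13 ± 0.09 (adjusted p = 0.000212), with a median of 0.44 in its other probe sets. Fbln1, Cd44, Hyal2 and Bmp1 lost the call with within-array ranks, Has2, Loxl1, Mmp14, Cd44 and Bmp1 with the mean over probe sets, Has3, Loxl1, Adam12 and Cd44 with the deposited scale, Cd44 with the replicate number as a block, Hyal2 and Bmp1 with cyclic loess, Hyal2 with the E14.5 arrays of batch 1 alone, and Bmp1 with the E14.5 arrays of batch 2 alone. Cd44 missed the threshold without E13.5 mutant array 1 or 2 or E14.5 mutant array 4 (adjusted p from 0.0547 to 0.0682), Hyal2 without E13.5 mutant array 1 or 3 (adjusted p from 0.0677 to 0.110) and Bmp1 without E13.5 mutant array 1 or 2 (adjusted p from 0.0503 to 0.0840).

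Components of the ERK pathway itself changed in 4 of 11 tested genes, 2 up and 2 down, beside 21.6% of all genes in either direction. The list's median was -0.12 in mutants and -0.23 in controls. Araf, a RAF kinase, stood at 3.54, 4.57 and 4.07 in the E13.5 arrays and at 6.52, 6.56, 6.81, 6.59 and 6.22 in the E14.5 arrays and rose by 2.48 ± 0.21 (adjusted p = 1.95e-06), with 3 of 5 probe sets upward. Sos2, a RAS exchange factor, stood at 6.26, 6.75 and 6.51 in the E13.5 arrays and at 7.49, 7.43, 7.57, 7.46 and 7.46 in the E14.5 arrays and rose by 0.98 ± 0.09 (adjusted p = 0.00146). The scaffold Ksr1 fell by 1.01 ± 0.11 (adjusted p = 0.00587) and the adaptor Shc1 by 0.81 ± 0.08 (adjusted p = 0.0387). Map2k2, a kinase directly above ERK, read -0.46 ± 0.08 and did not pass. In controls Araf changed by 2.54 and Sos2 by 0.91. Araf, Ksr1 and Shc1 lost the call with the mean over probe sets, Sos2 and Ksr1 with the deposited scale, Ksr1 and Shc1 with within-array ranks, cyclic loess or the E14.5 arrays of batch 1 alone, Ksr1 with a floor at the 60th percentile, and Shc1 with quantile normalization of the mutant arrays alone, only mutant arrays in the fit or the E14.5 arrays of batch 2 alone. Ksr1 missed the threshold without E13.5 mutant array 3 (adjusted p = 0.0518) and Shc1 without E13.5 mutant array 1 or 3 or E14.5 mutant array 2, 3 or 5 (adjusted p from 0.0664 to 0.243).

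Targets and feedback genes of ERK rose in 4 of 19 tested and fell in 1, beside 10.6% and 11.0% of all genes. The list's median was 0.30 in mutants and 0.19 in controls, but -0.29 in mutants with the deposited scale. Ier3, an immediate early gene that ERK induces, stood at 4.52, 4.36 and 4.17 in the E13.5 arrays and at 6.95, 6.95, 6.90, 6.71 and 7.15 in the E14.5 arrays and rose by 2.59 ± 0.10 (adjusted p = 3.57e-10). Egr3, an early growth response factor, stood at the floor in all 3 E13.5 arrays and at 5.93, 6.72, 6.60, 7.12 and 6.39 in the E14.5 arrays, at least 19-fold higher (adjusted p = 6.66e-05), but its second probe set read -1.23. Egr2, of the same family, stood at the floor in all 3 E13.5 arrays and at 4.02, 4.14, 4.2, 4.69 and 4.02 in the E14.5 arrays, at least 3.76-fold higher (adjusted p = 3.63e-05), in both probe sets. The E14.5 arrays of these 3 genes all lay above the E13.5 arrays.

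Fosl2, an AP-1 subunit, rose by 0.97 ± 0.08 (adjusted p = 0.000788). Spry1, an inhibitor that ERK induces to limit its own pathway, stood at 7.07, 6.86 and 6.94 in the E13.5 arrays and at 6.01, 6.11, 5.83, 6.03 and 6.08 in the E14.5 arrays and fell by 0.94 ± 0.08 (adjusted p = 0.00185). The changes in controls were 1.96 for Ier3, 0.62 for Fosl2 and -1.17 for Spry1, and none passed the test of the difference (95% intervals of the difference 0.34 to 0.91, 0.12 to 0.60 and -0.02 to 0.47). Among 19 immediate early and heat shock genes, the chaperone Hspa1b stood at 6.44, 6.35 and 6.42 in the E13.5 arrays and at 7.96, 7.96, 8.07, 7.92 and 8.03 in the E14.5 arrays and rose by 1.58 ± 0.11 (adjusted p = 1.75e-06) in all 3 probe sets, and Hspb8 rose by 1.01 ± 0.11 (adjusted p = 0.00379), with a median of -0.09 in its other probe sets. The list's median was 0.34 in mutants and 0.10 in controls, but -0.29 in mutants with the deposited scale and -0.02 in mutants with the mean over probe sets. Egr3, Fosl2 and Hspb8 lost the call with the mean over probe sets, Egr2 with a floor at the 60th percentile, Fosl2 and Hspb8 with the deposited scale, Spry1 and Hspb8 with within-array ranks, and Spry1 with cyclic loess.

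Growth factor genes upstream of ERK were mixed. Of 15 tested FGF and PDGF genes 2 rose and 3 fell, beside 10.6% and 11.0% of all genes. The ligand Fgf9, of epithelium and mesothelium, stood at 5.63, 5.57 and 5.56 in the E13.5 arrays and at 4.24, 4.23, 4.10, 4.22 and 4.29 in the E14.5 arrays and fell by 1.37 ± 0.06 (adjusted p = 1.01e-07) in both probe sets. Fgf18, a ligand of bone and palate mesenchyme, fell by 0.88 ± 0.09 (adjusted p = 0.0108), and the decoy receptor Fgfrl1 by 1.27 ± 0.06 (adjusted p = 2.66e-07). Fgfr3, the receptor of cartilage and bone, rose by 1.14 ± 0.12 (adjusted p = 0.00138), and the ligand Pdgfd by 2.01 ± 0.15 (adjusted p = 1.47e-06), each with 1 further probe set, at -0.04 and 0.15. Fgf10, which signals from mesenchyme to epithelium in the shelf, stood at 2.92, 2.98 and 3.07 in the E13.5 arrays and at 2.31, 2.32, 2.31, 2.31 and 2.41 in the E14.5 arrays and did not pass. The list's median was 0.17 in mutants and 0.04 in controls, but -0.07 in mutants with the deposited scale and -0.12 in mutants with the mean over probe sets. Fgf18 lost the call with within-array ranks or cyclic loess, Fgfrl1, Fgfr3 and Pdgfd with the mean over probe sets, and Fgfr3 and Pdgfd with the deposited scale. Fgf18 missed the threshold without E13.5 mutant array 2 (adjusted p = 0.0535).

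In the TGF-beta and BMP list 3 of 24 rose and 2 fell, beside 10.6% and 11.0% of all genes. The ligand Bmp7 stood at 5.73, 5.75 and 5.76 in the E13.5 arrays and at 4.24, 4.09, 4.41, 4.34 and 4.41 in the E14.5 arrays and fell by 1.45 ± 0.11 (adjusted p = 6.18e-06), and its receptor Bmpr1b fell by 0.99 ± 0.08 (adjusted p = 0.000479). The ligand Tgfb2 rose by 0.90 ± 0.06 (adjusted p = 0.0006), with a median of 0.50 in its other probe sets, and the inhibitory Smad7 by 1.69 ± 0.06 (adjusted p = 1.36e-09), but the second probe set of Smad7 read -1.47. Id2, a BMP target, rose by 0.84 ± 0.08 (adjusted p = 0.0180). These genes had a median of 0.12 in mutants and 0.07 in controls, but -0.13 in mutants with the deposited scale. Bmp7, Tgfb2, Smad7 and Id2 lost the call with the mean over probe sets, Bmpr1b with within-array ranks, Bmpr1b and Id2 with cyclic loess or the E14.5 arrays of batch 1 alone, and Tgfb2 and Id2 with the deposited scale. Id2 missed the threshold without E13.5 mutant array 1 (adjusted p = 0.132).

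In the WNT list 3 of 24 rose and 3 fell, near the 10.6% and 11.0% of all genes. The epithelial ligand Wnt7b stood at 4.73, 4.70 and 5.00 in the E13.5 arrays and at 3.09, 3.00, 2.84, 2.80 and 3.02 in the E14.5 arrays and fell by 1.86 ± 0.12 (adjusted p = 3.7e-07). The secreted inhibitor Wif1 stood at 6.07, 6.86 and 6.49 in the E13.5 arrays and at 8.45, 8.74, 8.69, 8.72 and 8.69 in the E14.5 arrays and rose by 2.19 ± 0.15 (adjusted p = 4.14e-07). The inhibitor Dkk1, which blocks LRP co-receptors, stood at 4.13, 4.74 and 4.54 in the E13.5 arrays and at 6.13, 6.93, 6.19, 6.52 and 6.36 in the E14.5 arrays and rose by 1.96 ± 0.23 (adjusted p = 0.000175) in both probe sets. Wif1 and Dkk1 were thus higher and Wnt7b lower in every E14.5 array.

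The ligand Wnt5b rose by 1.16 ± 0.08, Wnt16 fell by 1.20 ± 0.17 and the agonist Rspo3 fell by 1.00 ± 0.10 (adjusted p = 0.00218). Of 12 hedgehog genes 1 rose, Hhip, which binds and holds back the ligands, by 1.39 ± 0.17 (adjusted p = 0.00101), with 4 of 4 probe sets upward. Wnt7b and Wnt5b lost the call with the mean over probe sets, Dkk1 and Hhip with the deposited scale, Wnt5b, Wnt16 and Hhip with within-array ranks, and Wnt16 with cyclic loess. Wnt5b read -0.19 with the deposited scale, the opposite direction.

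Most cell cycle genes had lower values at E14.5, and several inhibitors of the cycle rose. Of 38 cell cycle and replication genes 29 (76.3%) had a change below 0, beside 51.9% of all genes, but only 3 fell and 2 rose, fewer in share than the 11.0% and 10.6% of all genes, and the median was -0.25 in mutants and -0.35 in controls. The helicase subunit Mcm2 stood at 8.65, 8.81 and 8.89 in the E13.5 arrays and at 7.72, 7.82, 7.99, 7.73 and 7.66 in the E14.5 arrays and fell by 1.00 ± 0.08 (adjusted p = 0.000419), with its second probe set at -0.13. The replication factors Gins2 and Cdc45 fell by 1.01 ± 0.05 and 0.97 ± 0.07, while Ccne2, a cyclin of S-phase entry, rose by 1.06 ± 0.09 and Tyms, thymidylate synthase, by 1.31 ± 0.08. Of 12 genes of cycle exit 4 rose and none fell, with a median of 0.48 in mutants and 0.50 in controls, but -0.18 in mutants with the deposited scale.

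Cdkn1a, the p21 inhibitor, stood at 6.21, 5.84 and 6.10 in the E13.5 arrays and at 8.01, 7.44, 7.34, 7.65 and 7.67 in the E14.5 arrays and rose by 1.58 ± 0.14 (adjusted p = 2.13e-05). Cdkn1b, the p27 inhibitor, stood at 6.87, 7.19 and 7.08 in the E13.5 arrays and at 8.31, 8.39, 8.42, 8.38 and 8.35 in the E14.5 arrays and rose by 1.33 ± 0.09 (adjusted p = 9.09e-06). Their second probe sets read 0.46 and 0.30. Cdkn2b rose by 1.68 ± 0.13 and Rbl2, a pocket protein of resting cells, by 0.77 ± 0.05. Hmga2, a chromatin protein of early growth, stood at 9.91, 9.66 and 9.68 in the E13.5 arrays and at 8.67, 8.84, 8.68, 8.85 and 8.74 in the E14.5 arrays and fell by 1.00 ± 0.08 (adjusted p = 0.000703) in all 3 probe sets, the only fall in 11 growth genes of the fetus. Mcm2 and Gins2 lost the call with the mean over probe sets, Cdc45 and Rbl2 with within-array ranks, Tyms and Cdkn2b with a floor at the 60th percentile, and Rbl2 with cyclic loess. Rbl2 read -0.40 with the deposited scale, the opposite direction.

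Cellular metabolism is what the design text sets out to study, and metabolic genes changed in single enzymes and transporters. In glycolysis 5 of 18 rose and 2 fell, with a median of 0.17 in mutants and 0.16 in controls, but -0.07 in mutants with the deposited scale. The glucose transporter Slc2a1 stood at 9.07, 9.11 and 9.07 in the E13.5 arrays and at 10.42, 10.25, 10.34, 10.35 and 10.47 in the E14.5 arrays and rose by 1.28 ± 0.05 (adjusted p = 5.69e-08), with all 3 probe sets upward. Pgam1, a phosphoglycerate mutase, stood at 9.05, 9.12 and 9.11 in the E13.5 arrays and at 10.26, 10.30, 10.26, 10.27 and 10.29 in the E14.5 arrays and rose by 1.18 ± 0.05 (adjusted p = 4.57e-08). Of the phosphofructokinases, the platelet form Pfkp rose by 1.78 ± 0.09 (adjusted p = 3.95e-08) and the muscle form Pfkm fell by 1.13 ± 0.10 (adjusted p = 0.000368). Aldoc, an aldolase, rose by 1.09 ± 0.14 (adjusted p = 0.00994). The regulator Pfkfb3 rose by 1.17 ± 0.08, and the transporter Slc2a3 fell by 1.01 ± 0.10, its second probe set at 0.07.

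In pyruvate and tricarboxylic acid metabolism 2 of 25 rose and 1 fell, with a median of 0.03 in mutants and 0.05 in controls. Pdk4, a kinase that shuts pyruvate dehydrogenase, stood at the floor in all 3 E13.5 arrays and at 3.64, 4.06, 3.71, 3.78 and 3.60 in the E14.5 arrays, at least 2.74-fold higher (adjusted p = 0.000498). Its relative Pdk1 rose by 0.87 ± 0.09 (adjusted p = 0.0181), and Pcx, pyruvate carboxylase, fell by 1.05 ± 0.09 (adjusted p = 0.000695). Of 41 oxidative phosphorylation genes none rose and 2 fell, Cox8a by 1.03 ± 0.07 (adjusted p = 4.85e-05) in both probe sets and Atp5d by 0.77 ± 0.06 (adjusted p = 0.0158) with its second probe set at -0.22, and the median was -0.13 in mutants and -0.17 in controls. Pfkp and Pdk1 lost the call with the deposited scale, Pfkp, Pfkfb3, Slc2a3, Pdk1 and Atp5d with the mean over probe sets, Pfkfb3, Slc2a3, Pdk1, Pcx and Atp5d with within-array ranks, Pdk4 with a floor at the 60th percentile, Pdk1 and Atp5d with the E14.5 arrays of batch 1 alone, and Pdk1 with the E14.5 arrays of batch 2 alone. Pfkfb3 read -0.25 with the deposited scale, the opposite direction. Pdk1 missed the threshold without E13.5 mutant array 1 (adjusted p = 0.152) and Atp5d without E13.5 mutant array 1 or 3 (adjusted p from 0.0714 to 0.105).

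In cholesterol synthesis 4 of 20 fell and 1 rose, with a median of -0.26 in mutants and -0.38 in controls, but 0.23 in mutants for genes at or above the 75th percentile in every mutant array. Srebf2, the factor that drives the pathway, stood at 6.52, 6.37 and 6.49 in the E13.5 arrays and at 5.07, 5.02, 4.84, 5.01 and 4.93 in the E14.5 arrays and fell by 1.49 ± 0.08 (adjusted p = 1.71e-07) in both probe sets. The enzymes Sqle (-0.94 ± 0.06), Sc5d (-1.22 ± 0.06) and Dhcr7 (-0.89 ± 0.09) fell too, and Insig1, which holds the factor back, rose by 0.92 ± 0.08 (adjusted p = 0.00193). In fatty acid and lipid metabolism 4 of 26 rose and 3 fell. Fabp4, a lipid carrier of fat and vessel cells, stood at 2.75, 2.67 and 2.32 in the E13.5 arrays and at 6.47, 6.48, 6.04, 6.07 and 6.36 in the E14.5 arrays and rose by 3.70 ± 0.16 (adjusted p = 8.25e-10) in both probe sets. Cd36, a fatty acid importer, rose by 1.73 ± 0.10 and Acsl4 by 1.82 ± 0.07, and Fabp3, the lipid carrier of muscle, by 1.15 ± 0.19, while the triglyceride enzymes Dgat2 and Agpat1 fell by 1.80 ± 0.09 and 1.83 ± 0.10 and Acaca, which starts fatty acid synthesis, fell by 1.10 ± 0.11. The second probe set of Dgat2 read 0.00. Sc5d, Cd36 and Acaca lost the call with the mean over probe sets, Dhcr7 and Acaca with within-array ranks, Dhcr7 with cyclic loess or the E14.5 arrays of batch 2 alone, and Insig1 with the deposited scale or the E14.5 arrays of batch 1 alone. In the list of serine, one-carbon and ATF4 genes 2 of 18 rose, Asns, asparagine synthetase, by 0.78 ± 0.06 (adjusted p = 0.0145) and Cth, of the transsulfuration pathway, by 1.17 ± 0.14 (adjusted p = 0.00377), neither of which passed in controls (0.65 and 0.66). The second probe set of Asns read 0.02. The test of the difference gave 95% intervals of -0.05 to 0.32 and 0.07 to 0.94. Asns and Cth lost the call with within-array ranks, the deposited scale or the E14.5 arrays of batch 1 alone, and Asns with the mean over probe sets or the E14.5 arrays of batch 2 alone. Asns missed the threshold without E13.5 mutant array 1 or 3 (adjusted p from 0.0557 to 0.105). Of 15 reference genes B2m alone passed, and of 19 ribosomal protein genes none, with medians of -0.04 in mutants and -0.01 in controls and -0.09 in mutants and -0.12 in controls.

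**Figure D4:**
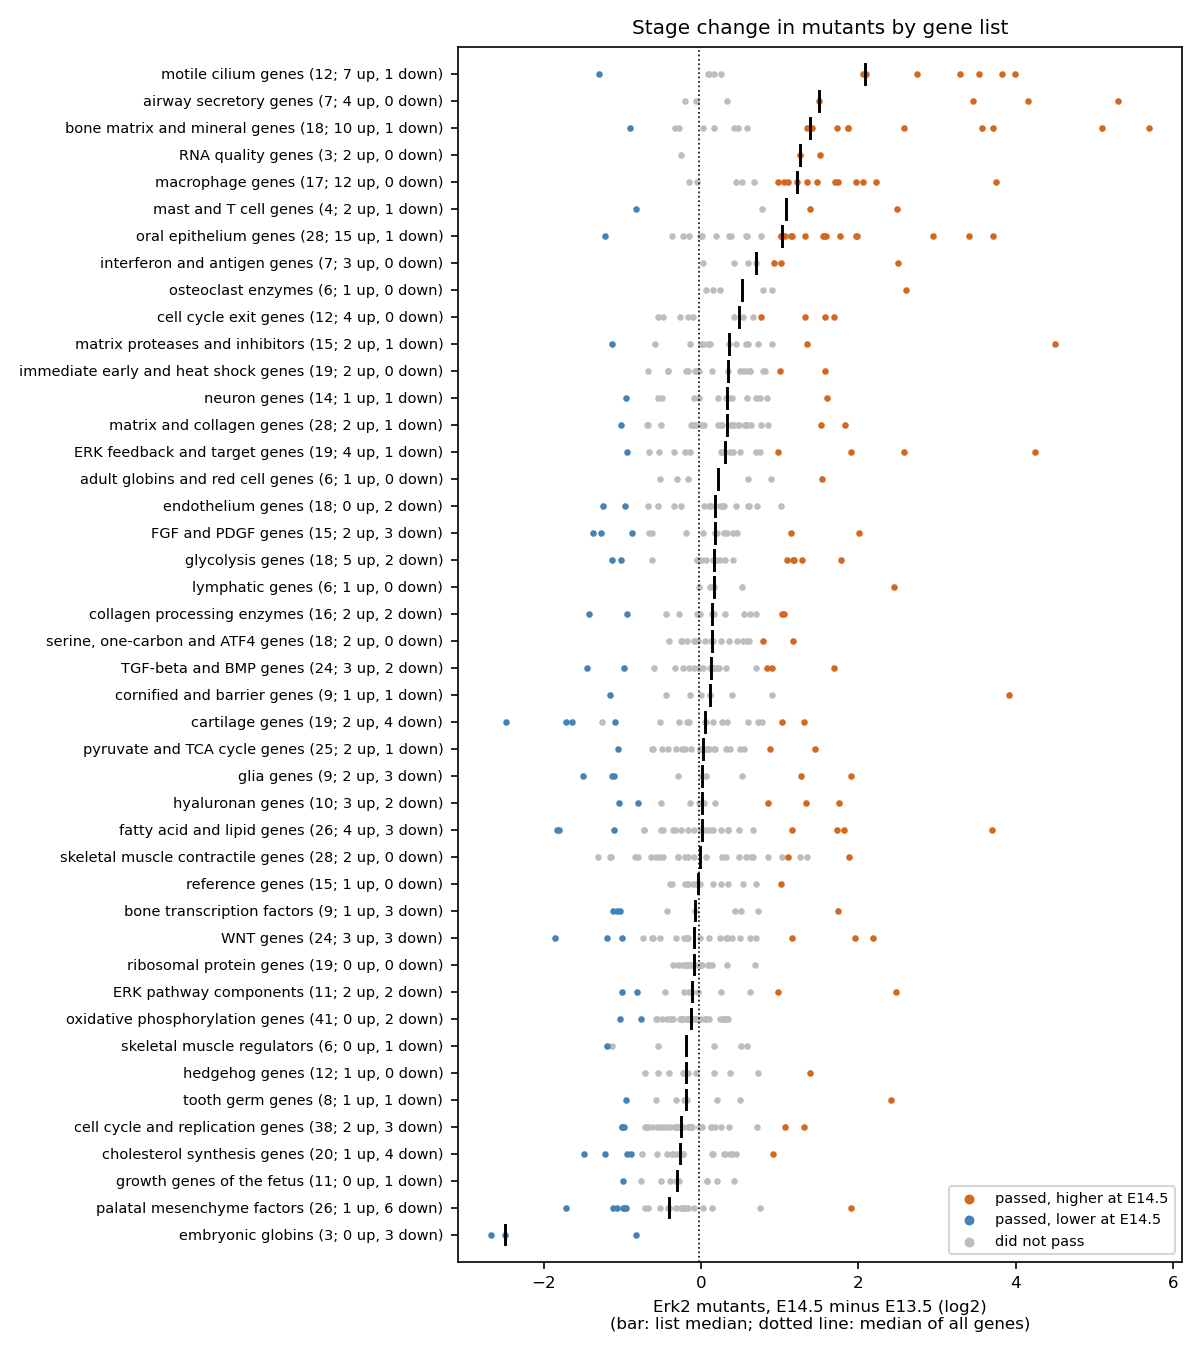
Change from E13.5 to E14.5 in Erk2 mutants (horizontal axis, log2) of every tested member of 44 gene lists (rows, with the number tested and how many passed in each direction), coloured by whether the gene passed, with list medians as bars. The 3 embryonic globins have a median of -2.49 and all genes one of -0.02, while 9 of the 12 motile cilium genes started at the floor in every E13.5 mutant array.

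The remaining large rises came from single genes. Gal, the neuropeptide galanin, stood at 2.31, 2.58 and 2.57 in the E13.5 arrays and at 6.16, 7.24, 7.77, 7.26 and 6.85 in the E14.5 arrays and rose by 4.57 ± 0.35 (adjusted p = 2.17e-07). C1qtnf3, a secreted C1q-like protein of cartilage and connective tissue, stood at 3.96, 4.41 and 4.48 in the E13.5 arrays and at 8.56, 8.42, 8.37, 8.53 and 8.38 in the E14.5 arrays and rose by 4.17 ± 0.26 (adjusted p = 2.3e-08). Both were above all E13.5 values in every E14.5 array, and in controls they changed by 3.68 and 3.89.

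Of the 15 largest falls, 4 were at the floor in every E14.5 mutant array and 10 rest on a single probe set. Sema3f, a secreted guidance cue, stood at 7.11, 7.18 and 7.58 in the E13.5 arrays and at 3.25, 3.25, 3.22, 3.39 and 3.17 in the E14.5 arrays and fell by 4.03 ± 0.11 (adjusted p = 4.65e-12), but its other probe sets had a median of -0.26. Hyou1, a chaperone of the endoplasmic reticulum, stood at 7.08, 7.24 and 7.02 in the E13.5 arrays and at 3.87, 3.75, 3.87, 3.77 and 3.67 in the E14.5 arrays and fell by 3.33 ± 0.09 (adjusted p = 9.37e-12), with the second probe set at 0.15. Hspg2, the basement membrane proteoglycan perlecan, stood at 6.43, 6.35 and 6.69 in the E13.5 arrays and at 3.51, 3.20, 3.18, 3.32 and 3.22 in the E14.5 arrays and fell by 3.20 ± 0.10 (adjusted p = 6.64e-11), with the second at -0.45. Pmf1, a kinetochore protein, fell by 3.19 ± 0.12, and its second probe set, at -1.37, was called as well.

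Lypla2, a lysophospholipase, stood at 7.56, 7.48 and 7.64 in the E13.5 arrays and at 4.32, 4.32, 4.26, 4.22 and 4.25 in the E14.5 arrays and fell by 3.28 ± 0.05 (adjusted p = 7.63e-14). The T cell kinase Zap70 (-3.17 ± 0.13), the stem cell factor Utf1 and the neuropeptide Oxt, whose defining cells are not part of palate mesenchyme, were among the 15, each with 1 probe set. Utf1 and Oxt were at the floor in all 5 E14.5 arrays, so their falls are at least 8.83-fold and 8.34-fold. Zfp691 and Abcb8 were at the floor at E14.5 too, with falls of at least 8.71-fold and 8.23-fold. Ces5a (-3.14 ± 0.11), Sema6c (-3.09 ± 0.07), Inpp5j (-2.98 ± 0.11), Slc2a8 (-2.94 ± 0.07) and Hic1 (-2.94 ± 0.11) completed them. All 15 were called lower in controls as well. Utf1 and Ces5a lost the call with the mean over probe sets. Abcb8 read 0.09 with within-array ranks, the opposite direction. Abcb8 had a second probe set at 0.12.

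The last comparison asked where the mutant palate changed otherwise than the control palate between the stages. The difference is the mutants' stage change minus the controls', tested against 0 over all 16 arrays, so a shift common to both genotypes cancels. It was positive in 14 (0.108% of those tested) and negative in 8 (0.0620%) of the 22 genes that passed. Mutants and controls were measured on separate arrays at both stages, and each genotype's values enter the difference once. By the same genes as above, all 3 E13.5 control arrays were female, and of the 5 E14.5 arrays 1 was female in controls and 3 in mutants. With sex as a term 23 genes passed, 18 of them among the 22.

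Cxcl5, a chemokine that draws neutrophils, stood in mutants at 4.39, 4.47 and 4.41 in the E13.5 arrays and at 4.99, 4.93, 5.04, 5.03 and 5.08 in the E14.5 arrays. In controls Cxcl5 stood at 5.64, 5.70 and 5.65 in the E13.5 arrays and at 5.28, 5.44, 5.21, 5.15 and 5.19 in the E14.5 arrays. The mutant arrays lay below the controls at both stages, by less at E14.5, and the stage changes of 0.59 ± 0.06 in mutants and -0.41 in controls differed by 0.99 ± 0.08 (adjusted p = 0.000153). Over the alternative settings the change of Cxcl5 in mutants ran from -0.58 to 0.62 and the difference from 0.53 to 1.10. Ankrd29, an ankyrin repeat protein, stood in mutants at 3.08, 3.09 and 3.00 in the E13.5 arrays and at 5.75, 5.74, 5.75, 5.85 and 5.84 in the E14.5 arrays. In controls Ankrd29 stood at 3.83, 3.81 and 3.80 in the E13.5 arrays and at 5.89, 5.94, 5.80, 5.86 and 5.93 in the E14.5 arrays. The mutant arrays lay below the controls at E13.5 and overlapped them at E14.5, a difference of 0.66 ± 0.06 (adjusted p = 0.000432).

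Ifi202b, an interferon-inducible gene of the p200 family, stood in mutants at the floor in all 3 E13.5 arrays and at 4.45, 4.87, 4.76, 4.86 and 5.10 in the E14.5 arrays. In controls Ifi202b stood at 2.31, 2.31 and 2.60 in the E13.5 arrays and at 3.09, 3.33, 2.78, 3.60 and 3.19 in the E14.5 arrays. Every E14.5 mutant array was above every control array, and the changes differed by 1.71 ± 0.22 (adjusted p = 0.00494).

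Krt6a changed by 3.71 ± 0.12 in mutants and 2.77 in controls, a difference of 0.94 ± 0.17 (adjusted p = 0.0363), and Sfn by 1.33 ± 0.08 and 0.72, a difference of 0.61 ± 0.11 (adjusted p = 0.0363). In controls Krt6a stood at 4.68, 4.52 and 4.91 in the E13.5 arrays and at 7.58, 7.42, 7.49, 7.33 and 7.55 in the E14.5 arrays. In controls Sfn stood at 3.87, 3.91 and 4.07 in the E13.5 arrays and at 4.75, 4.69, 4.53, 4.73 and 4.63 in the E14.5 arrays. Mpzl2, an adhesion protein of epithelia, rose in both genotypes and by 0.62 ± 0.09 more in mutants (adjusted p = 0.0109). Mpzl2 lost the call with the mean over probe sets.

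Cwc22, a splicing factor, differed by 0.78 ± 0.12 (adjusted p = 0.0138), Nppc, the C-type natriuretic peptide of growing bone, by 0.81 ± 0.12 (adjusted p = 0.0138), and Tmem132c by 0.48 ± 0.07 (adjusted p = 0.0163). Gria1, a glutamate receptor subunit, changed by 0.48 ± 0.13 in mutants and -0.64 in controls, a difference of 1.12 ± 0.18 (adjusted p = 0.0252). Over the alternative settings the change of Gria1 in mutants ran from -0.35 to 0.55 and the difference from 0.56 to 1.21. Commd9, a protein of membrane recycling, changed by 0.28 ± 0.06 in mutants and 1.00 in controls, a difference of -0.72 ± 0.09 (adjusted p = 0.00370), and its mutant arrays were the higher ones at E13.5. Serpinb6e (-0.43 ± 0.06), Gzmm (-0.36 ± 0.05) and Syt17 (-0.48 ± 0.08) changed by more in mutants, from higher E13.5 values to E14.5 values at or near the floor in both genotypes, so these differences are set by the E13.5 arrays. The other 8 genes were Slc26a7 (-0.85 ± 0.15), Gm3515 (0.80 ± 0.08), Inpp5d (-0.61 ± 0.11), Depdc7 (0.59 ± 0.10), Dubr (0.54 ± 0.10), Pdia5 (-0.54 ± 0.09), Csmd3 (0.51 ± 0.09) and Elavl3 (-0.30 ± 0.05). Gria1, Syt17 and Tmem132c missed the threshold when single arrays were left out, with adjusted p of 0.0515 to 0.0736 for Gria1 (without E13.5 mutant array 3, E13.5 control array 3, E14.5 mutant array 4 or 5, or E14.5 control array 2), 0.0540 to 0.0707 for Syt17 (without E13.5 control array 3 or E14.5 mutant array 3, 4 or 5) and 0.050 to 0.0595 for Tmem132c (without E13.5 mutant array 3 or E14.5 mutant array 4 or 5). The count of 22 was 37 without E13.5 mutant array 1, 67 without E13.5 mutant array 2, and 13, 11 and 10 without E14.5 mutant arrays 3, 4 and 5, and with the E14.5 arrays of batch 1 alone 1 gene passed, none of the 22. Over all alternative settings the call was lost in 13 of 33 for Syt17, 8 of 33 for Gria1 and Tmem132c each, 7 of 33 for Serpinb6e and 6 of 32 for Gzmm. Commd9 lost it in 3 of 33, Ifi202b, Cwc22 and Mpzl2 in 2 of 33 each, and Cxcl5, Ankrd29 and Nppc in 1 each. The other genes of the 22, Krt6a and Sfn among them, were not followed in this way.

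Some gene lists leaned to one side in this difference although few of their genes passed, and these lists were picked after their values were seen. All 28 oral epithelium genes changed more in the upward direction in mutants than in controls, with a median difference of 0.40 and a range of 0.14 to 1.13, beside 53.8% of all genes above 0 and a median of 0.01. The list's mean level was 6.13 to 6.21 in mutant and 6.08 to 6.35 in control arrays at E13.5, and 7.09 to 7.39 against 6.67 to 6.87 at E14.5, so the genotypes overlapped at the earlier stage and not at the later. Of 19 ERK feedback and target genes 17 lay above 0, with a median of 0.21, led by Egr3 (1.14 ± 0.80), the early response factor Egr1 (0.75 ± 0.20) and Ier3 (0.62 ± 0.13), and none of the 19 passed. The difference had an adjusted p of 0.0960 for Ier3 and 0.196 for Egr1. The epithelium's part in the ERK target values was not tested.

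Of the 44 lists, 4 had 80% or more of their genes above 0, the other two being cholesterol synthesis (16 of 20, median 0.07) and lymphatic genes (5 of 6, 0.13). In 6 lists 25% or fewer lay above 0: cartilage, contractile muscle, bone transcription factors (1 of 9, median -0.21), muscle regulators (1 of 6, -0.21), collagen processing enzymes (2 of 16, -0.14) and endothelium (4 of 18, -0.14). Of 19 cartilage genes 3 lay above 0, with a median difference of -0.27, and the largest negative value was -1.46. Of 28 contractile muscle genes 1 lay above 0, with a median of -0.26, but 21 of 27 lay above 0, with a median of 0.30, when only the E14.5 arrays of batch 1 were used. In that setting 5 of 6 muscle regulators lay above 0 (median 0.21), and 4 of 9 bone transcription factors (-0.04). Cartilage (2 of 18, -0.44), collagen processing enzymes (3 of 16, -0.11) and endothelium (6 of 18, -0.08) kept a median below 0 there. The contractile list's mean level at E13.5 was 5.46 to 5.86 in mutant and 4.77 to 5.15 in control arrays. At E14.5 it was 5.27 to 6.58 in mutants and 4.73 to 5.93 in controls. The genotypes thus stood apart in this list at E13.5 and overlapped at E14.5. Under the other settings the oral epithelium list had at most 1 gene at or below 0, with medians of 0.31 to 0.50. The ERK target list kept a median of 0.13 to 0.27 and the cartilage list one of -0.65 to -0.25.

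**Figure D5:**
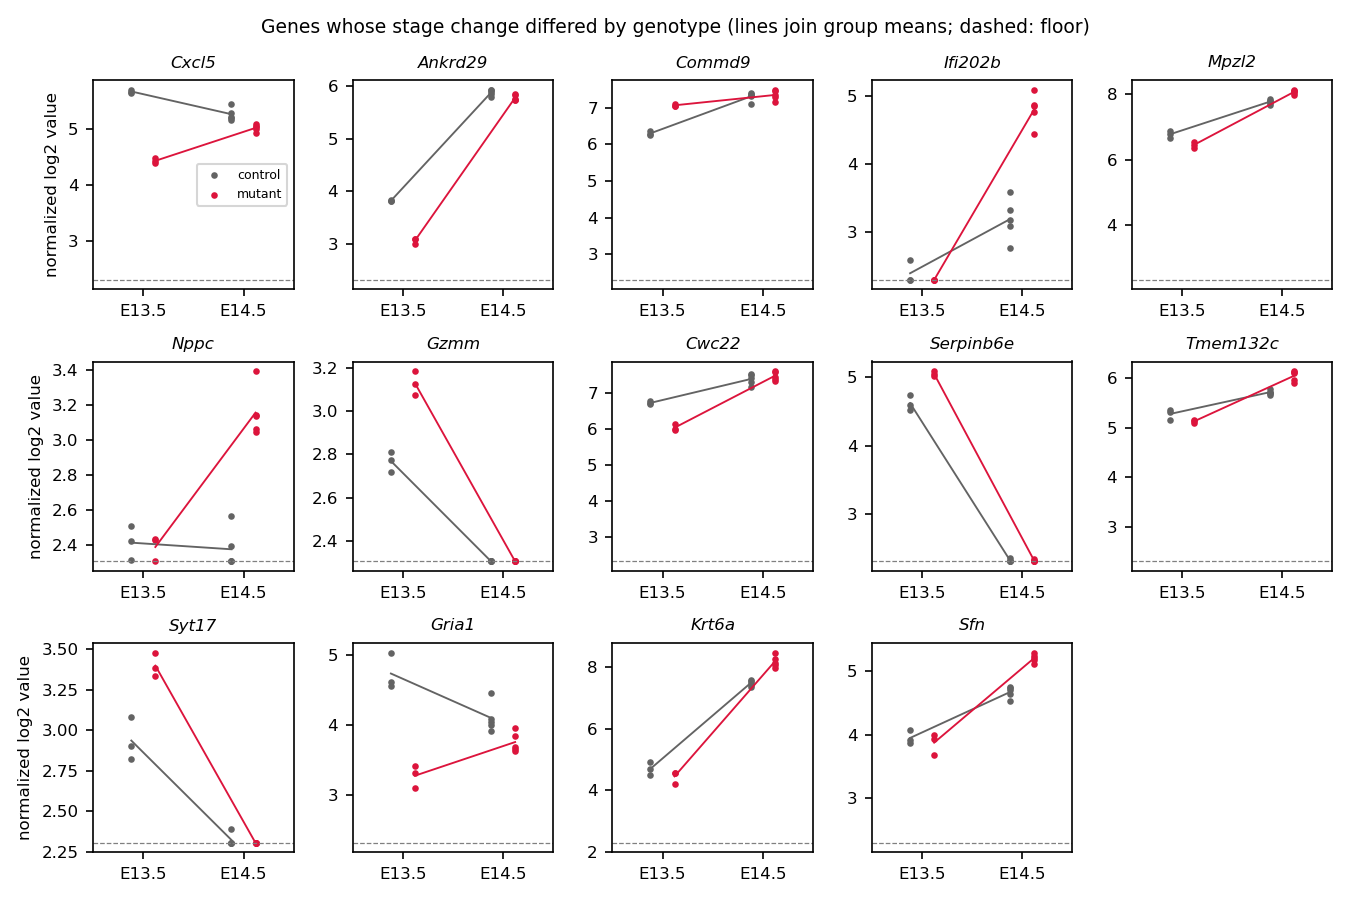
Normalized log2 values (vertical axes, scaled per gene) of 14 named genes whose stage change differed by genotype, in each array of controls (grey) and Erk2 mutants (red) at E13.5 (3 arrays each) and E14.5 (5 arrays each), with lines between group means and the floor at 2.31 dashed. Lines that are not parallel show the difference, as in Cxcl5, Ifi202b and Gria1, and Gzmm, Serpinb6e and Syt17 end at or near the floor.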

How the data were processed

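The submitters' series matrix was used: log2 values of 45101 Affymetrix probe sets on 16 arrays, made by the authors with GCRMA per the submitters' processing notes (version not given). A table of the platform's annotation gave 1 gene to 34958 probe sets, several to 932 and none to 9211; symbols were updated through RefSeq, and probe sets with 1 gene gave 18193 genes. Because deposited scales differed by stage, arrays were quantile normalized, values under the median were set to it (the floor), each gene took its probe set of highest mean, and 12911 genes above the floor in 3 or more arrays were tested. limma 3.58.1 (R 4.3.3) fitted the 4 groups on all 16 arrays with the E14.5 batch as a covariate; treat tested changes against 1.5-fold and eBayes tested differences by genotype against 0, with Benjamini-Hochberg adjustment over all genes at 0.05. The code was tested on simulated data. The number of arrays, 3 and 5 a group, limits the precision.

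Members and the 44 lists were chosen with earlier results of these data known. Named genes were up to 15 largest rises and falls without overlap between stages, up to 6 members a list by p, and up to 12 differences by genotype; list members beyond these were picked after their values were seen. Alternatives changed the normalization, floor, filter, probe set, test, batch, sex, replicate block and each array.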

Additional observations from a re-analysis of the deposited data

Results flagged for a closer look

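In 16 of 246 named genes, 1 of the 5 E14.5 mutant arrays stood apart from the others by Dixon's test, which chance alone flags in about 1 of 20 groups. On the log2 scale these were array 1 for Myod1 (4.09, next array 3.14), Nes (4.02, next array 3.53), Serpinb6e (2.33, next array 2.31) and Wif1 (8.45, next array 8.69), array 2 for Alpl (6.99, next array 6.61), Ibsp (11.90, next array 11.55), Ifitm5 (8.83, next array 8.27), Matn1 (2.49, next array 2.31) and Smpd3 (6.69, next array 6.17), array 3 for Rbl2 (5.01, next array 5.13) and Twist1 (8.70, next array 8.52), array 4 for Csf1r (7.34, next array 7.22) and Egr2 (4.69, next array 4.2), array 5 for Ccne2 (8.57, next array 8.76), Fgf10 (2.41, next array 2.32) and Nppc (3.40, next array 3.15). Of 22 genes checked in the E14.5 controls, 2 had such an array: array 2 for Syt17 (2.39, next array 2.31), array 4 for Serpinb6e (2.35, next array 2.31). In both of these, and in Matn1 in mutants, all other arrays were tied at the floor, where any single value above it is flagged. The rate of 1 in 20 does not hold for such genes. Groups of 3 arrays were not tested.

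The stage change differed between mutants and controls, by limma's test of the difference, for Ankrd29 (0.66), Commd9 (-0.72), Csmd3 (0.51), Cwc22 (0.78), Cxcl5 (0.99), Depdc7 (0.59), Dubr (0.54), Elavl3 (-0.30), Gm3515 (0.80), Gria1 (1.12), Gzmm (-0.36), Ifi202b (1.71), Inpp5d (-0.61), Krt6a (0.94), Mpzl2 (0.62), Nppc (0.81), Pdia5 (-0.54), Serpinb6e (-0.43), Sfn (0.61), Slc26a7 (-0.85), Syt17 (-0.48) and Tmem132c (0.48), each value being the log2 change in mutants minus that in controls.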

How the results depend on the processing

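Between the stages 1371 genes were higher and 1421 lower in mutants, and 22 differed by genotype. Within-array ranks gave 714, 683 and 14, and the deposited scale with a floor of 4 gave 262, 3494 and 124. The mean over probe sets gave 876 higher and 13 differing. A test against 0 gave 4592 higher and 5140 lower, and one against 2-fold 547 and 553. Of 6290 genes at or above the 75th percentile in every mutant array, 341 were called higher and 306 lower. Among genes with several probe sets, 100 were higher and 90 lower with every probe set called. Both settings were added after seeing the data. The count that differed by genotype was 12 and 44 with floors at the 40th and 60th percentile, 8 with no floor, 36 with no batch term and 1 with batch 1 alone. Leaving out single arrays gave 1210 to 1402 higher, 1279 to 1444 lower and 10 to 67 differing. The replicate numbers do not pair the stages: same-numbered mutant arrays correlated at 0.06, -0.04 and -0.16, and the replicate block gave 1332, 1394 and 16. Among named genes called in mutants, direction turned for Abcb8 with ranks (0.092) and for Laptm5 (-0.20) and Neat1 (-0.71) with the mean over probe sets. On the deposited scale it turned for Tmod1 (-0.26), Wnt5b (-0.19), Rbl2 (-0.40), Pfkfb3 (-0.25) and H2-D1 (-0.027). Changes in mutants that were not called could turn as well, as in Cxcl5 (-0.58 to 0.62 over the settings), Gria1 (-0.35 to 0.55) and Commd9 (-0.05 to 0.37). The cause was not tested. Signals at the floor bound what a fall or rise can show.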

Other observations

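Genes whose every probe set passed the test with a change of 4-fold or more were looked up after the values were seen, 23 of 78 such rises and 11 of 40 such falls with several probe sets. Besides bone, keratin and macrophage genes given above, the rises held Sgms2, a sphingomyelin synthase (3.59 ± 0.25), Ms4a6d, a membrane protein of macrophages (3.40 ± 0.12), Myb, a transcription factor of blood progenitors and epithelia (3.01 ± 0.14), and Nupr1, a stress-induced chromatin protein (2.98 ± 0.12). Serpinb5, the epithelial serpin maspin (2.48 ± 0.18), Cd55, which protects cells from complement (2.21 ± 0.13), Ctsh, a lysosomal cathepsin (2.18 ± 0.08), and Lyz1, a lysozyme (2.19 ± 0.12), rose as well. The same genes changed in controls by 3.39, 3.29, 2.92, 3.16, 2.01, 1.93, 2.35 and 2.09, in that order.

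Among the 11 falls were Pkmyt1, a kinase that holds back mitosis (-2.27 ± 0.10), and Cenpn, a centromere protein (-2.33 ± 0.08), as well as Nes, the filament nestin of progenitors (-2.20 ± 0.20), Cplx1, a complexin of nerve terminals (-2.10 ± 0.10), and Mtx1, a protein of the outer mitochondrial membrane (-2.75 ± 0.06). In controls these changed by -1.76, -2.39, -2.13, -1.75 and -2.67. Of 8 tooth germ genes, Odam, a secreted protein of the enamel organ, rose by 2.42 ± 0.66 (adjusted p = 0.0365) and the ligand Wnt10a fell by 0.95 ± 0.10 (adjusted p = 0.00869). Odam and Wnt10a lost the call with within-array ranks, Odam with the deposited scale, a floor at the 60th percentile, a robust variance trend, the E14.5 arrays of batch 2 alone or the replicate number as a block, and Wnt10a with cyclic loess or the E14.5 arrays of batch 1 alone. Odam missed the threshold without E13.5 mutant array 1, 2 or 3 or E14.5 mutant array 1, 2, 4 or 5 (adjusted p from 0.0602 to 0.0932) and Wnt10a without E13.5 mutant array 2 (adjusted p = 0.0603). Of 3 genes that mark nuclear or non-polyadenylated RNA, Neat1 rose by 1.25 ± 0.08 (adjusted p = 2.9e-06), with a median of -1.62 in its other probe sets, and the linker histone H1f2 rose by 1.51 ± 0.14 (adjusted p = 4.13e-05); their part in other changes was not tested. Neat1 lost the call with a floor at the 60th percentile, and H1f2 with quantile normalization of the mutant arrays alone or the mean over probe sets. Neat1 read -0.71 with the mean over probe sets, the opposite direction.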
